A study of Mus musculus with 46 samples.

Results

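Apolipoproteins are the protein components of the lipoprotein particles that carry triglyceride and cholesterol in blood. The 9 genes described here, Apoa1, Apoa2, Apoa4, Apoa5, Apob, Apoc3, Apoe, Apof and Apom, encode apolipoproteins made by hepatocytes. Each was taken as the probe set whose platform symbol is exactly that gene, and all 9 of 9 were found, each with 1 probe set, among 19938 genes with a symbol of their own on the array. The liver secretes 2 kinds of particle with these proteins: VLDL, built on Apob and loaded with triglyceride, and HDL, built mainly on Apoa1 and Apoa2. Apoa4, Apoa5, Apoc3 and Apoe exchange between particles and set how fast triglyceride is removed from them, with Apoa5 favouring and Apoc3 opposing lipoprotein lipase, the enzyme that does so at the vessel wall. Apof and Apom are minor components, Apom being the carrier of sphingosine-1-phosphate on HDL.

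Liver RNA came from 46 SKH:QS mice, each hybridised to 1 whole-transcript Affymetrix array, in 2 experiments, one on virgin mice (24 arrays) and one on pregnant mice near gestation day 17 (22 arrays). Each experiment had 4 arms. Mice had 6 applications to the skin over 4 days of a sunscreen with 68ZnO microparticles (micro ZnO), with 68ZnO nanoparticles (nano ZnO) or with no particles (formulation), or were left untreated, and livers were taken on day 5. There were 6 mice in each group, except that the pregnant untreated and pregnant micro ZnO groups had 5. The labels say that mice wore Elizabethan collars against swallowing the sunscreen, without singling out the untreated arm, and that they were housed singly. Age is not given in the sources used here. A formulation mouse differs from an untreated mouse in the sunscreen base and its application together, and the ZnO arms differ from the formulation arm in the particles.

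Values are the authors' log2 intensities, so a difference of 1 is a doubling. They compare 1 gene between groups and not 1 gene with another, since probes differ in brightness. The 9 measured hepatocyte markers had means of 9.86 to 13.9 in virgin untreated mice, and in every array each of the 9 apolipoproteins lay at percentile 96.7 or above of all probe sets. Array medians were 4.66 to 4.90 in the virgin and 3.98 to 4.12 in the pregnant experiment, and whether the experiments were normalised together is not given in the sources used here, so levels of virgin and pregnant mice were set side by side without a test. Replicates 3 and 4 of pregnant micro ZnO had the lowest median correlations with the other pregnant arrays (0.979 and 0.987, the rest from 0.988 to 0.993). Only comparisons with the pregnant micro ZnO arm were fitted again without both. No apolipoprotein was called in these with or without the 2 arrays, so no call was put to this test. A gene is said to rise or fall where limma's moderated test gave a Benjamini-Hochberg adjusted p under 0.05 over 23410 probe sets with a symbol.

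Of the 9 genes, 4 form 1 run on chromosome 9, in the order Apoa1, Apoc3, Apoa4, Apoa5, with Sik3 before and Zpr1 after. Apoe, on chromosome 7, lies next to Apoc1, and Apof, on chromosome 10, next to Apon. Apoa2, Apob and Apom lie on chromosomes 1, 12 and 17. RefSeq promoter entries (build GRCm38.p6) matched 7 of 9 members, all but Apoc3 and Apof. The 250 bases before the start sites of Apoa4 and Apoa5 are shown because these adjacent genes, both on the plus strand, moved in opposite directions in the virgin mice. Capitals mark matches to the motifs searched, and all other letters are lower case.
Apoa4, chr9:46240594-46240843: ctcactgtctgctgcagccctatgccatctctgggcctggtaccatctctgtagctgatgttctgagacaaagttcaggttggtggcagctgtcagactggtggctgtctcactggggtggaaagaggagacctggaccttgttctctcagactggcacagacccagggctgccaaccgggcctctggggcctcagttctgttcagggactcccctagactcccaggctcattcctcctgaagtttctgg
Apoa5, first of 2 entries, chr9:46268358-46268607: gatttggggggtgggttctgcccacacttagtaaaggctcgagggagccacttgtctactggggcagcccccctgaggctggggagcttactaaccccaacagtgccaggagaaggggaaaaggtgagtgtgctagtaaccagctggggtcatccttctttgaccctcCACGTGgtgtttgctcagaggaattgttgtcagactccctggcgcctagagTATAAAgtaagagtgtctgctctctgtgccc
The 7 motifs, searched on both strands, were the nuclear receptor half-site AGGTCA, the HNF4-type site CAAAGTCCA, the E-box CACGTG, the STAT-type site TTCNNNGAA, the cAMP response element core TGACGT, the TATA box TATAAA and the D-box TTATGNAA. In the Apoa5 window, CACGTG began at position -82 and TATAAA at -31 from the start site, both on the strand of the gene. No motif matched in the Apoa4 window. CACGTG occurs in 6.02% and TATAAA in 12.4% of 32851 promoter windows of this length, against 14% for AGGTCA, 7.02% for TTCNNNGAA, 6.47% for TGACGT, 3.07% for TTATGNAA and 0.384% for CAAAGTCCA. The second Apoa5 entry, which overlaps the first, holds the same pair. The other matches were TATAAA before Apoa2, Apoe and Apob and AGGTCA before Apoa2. A match is a run of letters and not a bound site.

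In virgin mice, Apoa4, a component of HDL and of intestinal chylomicrons that is also made in mouse liver, was lower in all 3 sunscreen arms than in untreated mice. Apoa5, its neighbour and an activator of triglyceride clearance, was higher in both ZnO arms. Apoc3 fell in the formulation arm and Apof in the nano ZnO arm. No apolipoprotein passed the test in any comparison within the pregnant experiment, where at most 0.107% of all probe sets passed.

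The 6 untreated virgin mice ranged in Apoa4 from 11.07 to 11.44 (log2 intensity), with a median of 11.21. Formulation mice ranged from 10.44 to 10.82, with a median of 10.64. Micro ZnO mice lay between 10.49 and 10.86 (median 10.72), and nano ZnO mice between 10.28 and 10.89 (median 10.66). Every treated virgin mouse thus lay below every untreated one, and the 3 treated groups overlapped each other throughout. Against untreated mice the log2 difference in Apoa4 was -0.58 ± 0.10 (SE), or -33.2%, in the formulation arm (limma adjusted p = 0.000246). It was -0.52 ± 0.10, or -30.4%, in the micro ZnO arm (adjusted p = 0.00243) and -0.62 ± 0.10, or -35.1%, in the nano ZnO arm (adjusted p = 0.000305). All 3 calls held under each of 20 alternative fits, the adjusted p of the formulation arm reaching 0.0451 with the spread of each array as a covariate. The group order by mean Apoa4 was untreated (11.24 ± 0.16, SD), micro ZnO (10.72 ± 0.14), formulation (10.66 ± 0.14) and nano ZnO (10.62 ± 0.24), and past the first step neighbouring means differed by less than their spread.

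**Figure D1:**
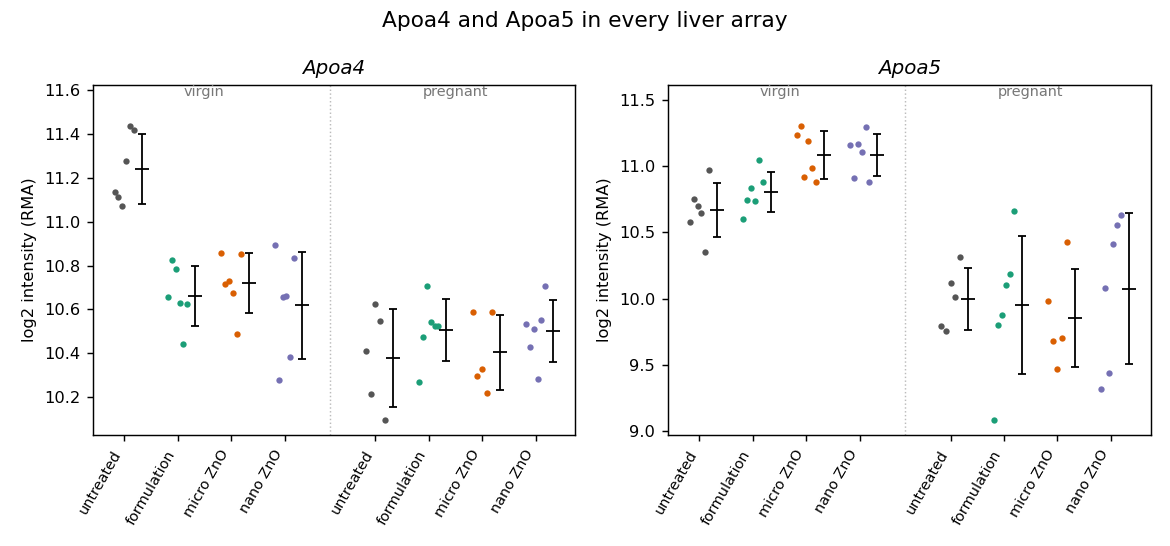
Log2 intensity of Apoa4 (left) and Apoa5 (right) in each of 46 liver arrays, by arm and experiment; points are mice, the bars to their right the mean and SD of the group. The virgin untreated mice stand above all other virgin mice in Apoa4, while in Apoa5 the ZnO arms of the virgin mice lie highest and the pregnant groups spread widely.

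Apoa4 gave no such difference in the pregnant mice. The 5 pregnant untreated mice had 10.10, 10.21, 10.41, 10.55 and 10.63. The 5 micro ZnO mice had 10.22, 10.30, 10.33, 10.59 and 10.59. Formulation mice ranged from 10.27 to 10.71 (median 10.52) and nano ZnO mice from 10.28 to 10.71 (median 10.52). The 4 groups overlapped, and the differences from untreated were 0.13 for formulation (95% interval -0.08 to 0.34), 0.03 for micro ZnO (-0.19 to 0.25) and 0.13 for nano ZnO (-0.09 to 0.34), with limma adjusted p of 0.619, 0.973 and 0.669. These intervals do not reach the falls seen in virgin mice.

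The difference between the pregnant and the virgin response of Apoa4 was tested directly. It was 0.71 ± 0.14 (SE, log2) for formulation (limma adjusted p = 0.018), where 0.145% of all probe sets were called. For nano ZnO it was 0.75 ± 0.14 (adjusted p = 0.0136), with 0.0427% of probe sets called. For micro ZnO it was 0.55 ± 0.15 and missed the threshold (adjusted p = 0.172), with 0.047% called. Apoa4 was the 1 apolipoprotein of 9 called in each of the first 2. Both calls were lost without pregnant untreated replicate 5, the lowest of its group in Apoa4. The differences were then 0.64 for formulation (limma adjusted p = 0.0534) and 0.68 for nano ZnO (limma adjusted p = 0.0567). Both were also lost with replicate number as a block. The formulation call was lost with array spread as a covariate as well, and the nano ZnO call with the compared groups alone. A differing response cannot be assigned to pregnancy, since experiment and pregnancy cannot be told apart.

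Apoa5 was the other gene with differences of this size. Untreated virgin mice ranged from 10.35 to 10.97 (log2 intensity), with a median of 10.67. Formulation mice ranged from 10.60 to 11.05 (median 10.79). Micro ZnO mice lay between 10.88 and 11.31 (median 11.09) and nano ZnO mice between 10.88 and 11.29 (median 11.13). In each ZnO arm 4 of 6 mice lay above every untreated mouse, so the groups overlapped at their edges. Apoa5 rose by 0.42 ± 0.10 (SE, log2) with micro ZnO, a rise of 33.7% (limma adjusted p = 0.0147). With nano ZnO it rose by 0.42 ± 0.10, or 33.6% (adjusted p = 0.00736), and both calls held under all 20 alternative fits of each. Formulation alone gave 0.14 ± 0.10 (adjusted p = 0.291).

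Set against formulation, the particle effect on Apoa5 itself did not pass the test. The difference was 0.28 with either particle, with a 95% interval of 0.08 to 0.48 for both, and limma adjusted p of 0.0814 for micro ZnO and 0.117 for nano ZnO. Array weights moved the micro ZnO value to 0.31 and past the threshold (adjusted p = 0.0435). Between the particle sizes the Apoa5 difference was -0.0008 (-0.20 to 0.20). In the pregnant mice Apoa5 varied more than any other member. Untreated mice had 9.75, 9.80, 10.01, 10.11 and 10.31, micro ZnO mice 9.47, 9.68, 9.70, 9.98 and 10.43. Formulation mice ran from 9.08 to 10.66 and nano ZnO mice from 9.32 to 10.63. The SD was 0.23 to 0.57 in these groups. The 95% intervals of the differences from untreated were -0.55 to 0.46 for formulation, -0.67 to 0.38 for micro ZnO and -0.43 to 0.58 for nano ZnO. That of nano ZnO contains its virgin rise of 0.42, and that of micro ZnO ends just below its virgin rise of 0.42. Formulation had no called rise in virgin mice (0.14), and its interval contains that value. The test of the difference in response was not passed for any arm (limma adjusted p from 0.655 to 0.869).

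Apoc3, an inhibitor of lipoprotein lipase and of remnant uptake, lies between Apoa1 and Apoa4. Its virgin untreated levels ranged from 12.88 to 13.05 (median 12.94) and those of formulation mice from 12.72 to 12.85 (median 12.79), without overlap. Micro ZnO mice ranged from 12.83 to 12.93 and nano ZnO mice from 12.80 to 12.89, and both overlapped either group. Apoc3 fell by 0.16 on the log2 scale with formulation (SE 0.05, -10.6%, limma adjusted p = 0.02). The call was lost when the 2 groups were fitted alone (adjusted p = 0.067) and when array spread was a covariate (-0.12). With micro ZnO the difference was -0.07 (adjusted p = 0.439) and with nano ZnO -0.10 (adjusted p = 0.189). The pregnant groups ranged over 12.37 to 12.59 and overlapped, with differences of 0.06, 0.01 and 0.03.

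Apof, which inhibits cholesteryl ester transfer in species that have that transfer protein, fell with nano ZnO. Virgin untreated mice ranged from 10.75 to 10.88 (median 10.84) and nano ZnO mice from 10.53 to 10.75 (median 10.64). Every nano ZnO mouse lay below every untreated one, by a small margin. The log2 difference was -0.19 ± 0.06 (SE), or -12.3% (limma adjusted p = 0.0348). It missed the threshold in 11 of 20 alternative fits, with a smallest difference of -0.12. Among them were 7 of the 12 that left out 1 array, which was nano ZnO replicate 2, 3 or 4 or untreated replicate 1, 3, 4 or 5 (-0.21 to -0.17 over the 12). Formulation (-0.05) and micro ZnO (-0.08) gave smaller differences that did not pass. In pregnant mice the 3 differences were -0.01, 0.05 and -0.05. Apon, the gene beside Apof, was at the threshold in nano ZnO virgin mice (-0.28 ± 0.09, adjusted p = 0.0497), and its call held in 4 of 8 other settings and in 1 of the 12 fits that left out 1 array, the one without nano ZnO replicate 6.

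**Figure D2:**
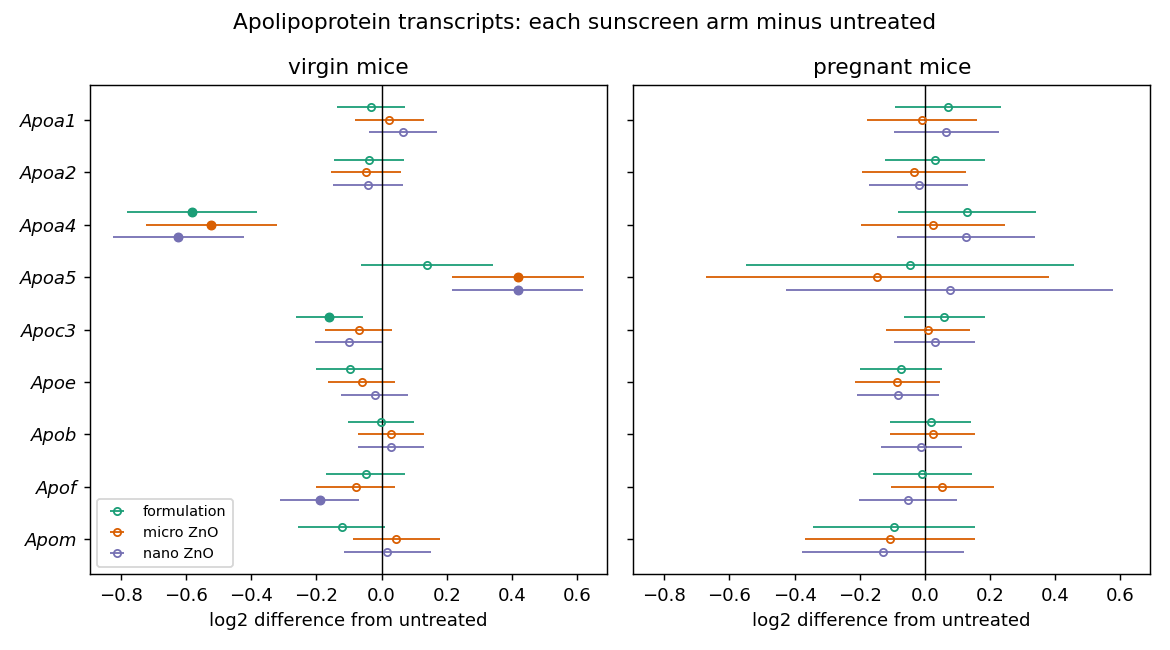
Log2 difference of each sunscreen arm from untreated mice for the 9 apolipoproteins in virgin (left) and pregnant (right) mice; circles are limma estimates, bars 95% intervals, and filled circles passed an adjusted p under 0.05. Apoa4 stands to the left of zero in all 3 virgin arms and Apoa5 to the right in both ZnO arms, and no circle is filled for the pregnant mice.

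The structural proteins gave no call. Apoa1, the main HDL protein and the cofactor of cholesterol esterification in plasma, had virgin group means from 13.29 ± 0.05 (SD, formulation) to 13.39 ± 0.03 (nano ZnO), against 13.32 ± 0.03 in untreated mice. Its differences from untreated were -0.03, 0.02 and 0.07, and the 95% intervals ran from -0.14 to 0.17. Apoa2, the second HDL protein, had means from 13.59 to 13.64 and differences of -0.04, -0.05 and -0.04. Apob, the single backbone protein of each VLDL particle, had virgin means of 12.25 to 12.28 and differences of -0.001, 0.03 and 0.03 in virgin and 0.02, 0.02 and -0.01 in pregnant mice. Its intervals in virgin mice ran from -0.10 to 0.13.

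Apoe, the ligand through which remnants are taken up by liver receptors, ranged from 13.71 to 13.75 in virgin untreated mice. All 6 formulation mice lay below this range, from 13.57 to 13.69, and the difference of -0.10 ± 0.05 (SE) did not pass the test (limma adjusted p = 0.147). It passed with an intensity trend and robust moderation (adjusted p = 0.0266). Micro ZnO (-0.06) and nano ZnO (-0.02) gave smaller values, and in pregnant mice all 3 differences lay between -0.08 and -0.07 without a call. Apom had virgin means of 9.99 ± 0.08 (SD) untreated, 9.86 ± 0.09 with formulation, 10.03 ± 0.05 with micro ZnO and 10.00 ± 0.14 with nano ZnO. Its virgin differences from untreated were -0.12, 0.05 and 0.02, none of which passed. In pregnant mice 3 arrays had low Apom: micro ZnO replicates 3 and 4, with 9.32 and 9.05, and nano ZnO replicate 1, with 9.03, where the untreated mice ran from 9.54 to 9.73.

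**Figure D3:**
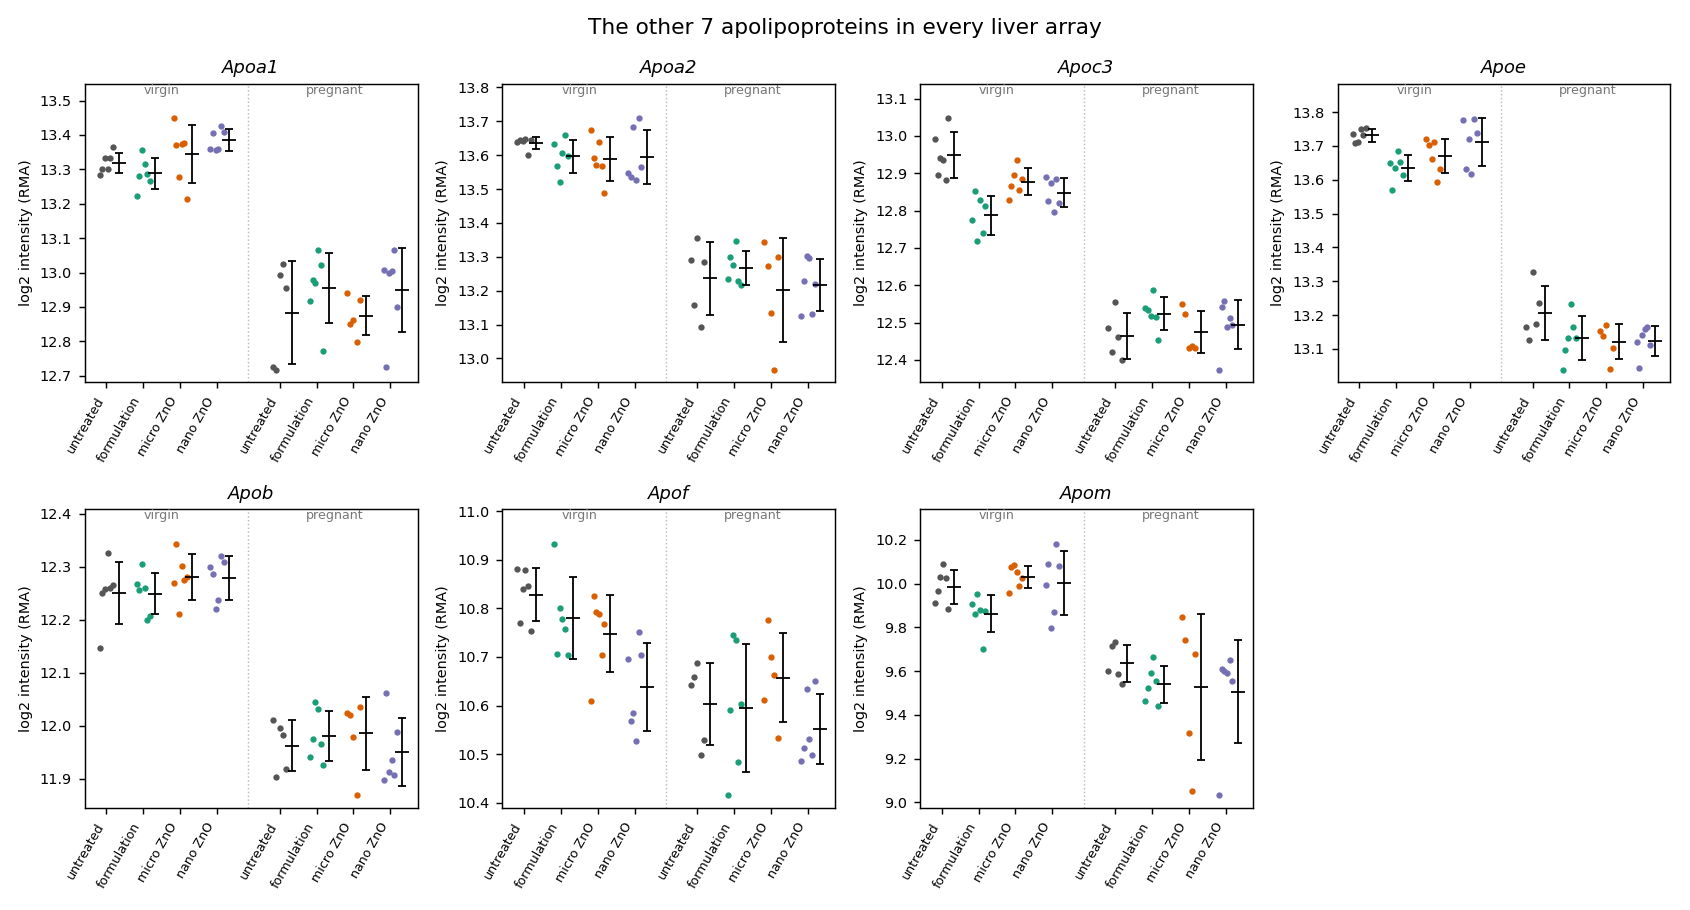
Log2 intensity of the 7 other apolipoproteins in each array, by arm and experiment; points are mice, bars the mean and SD of the group, and each panel has its own vertical scale. Apoc3 is lower in virgin formulation mice and Apof in virgin nano ZnO mice than in untreated mice, while Apoa1, Apoa2 and Apob overlap between arms.

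Read against all probe sets, the count for formulation lay near the background, and those for the ZnO arms, above it, rest on 2 and 3 genes. In virgin mice 2 of 9 apolipoproteins were called with formulation, both lower, where 26.5% of probe sets were called (11.5% higher and 15% lower). With micro ZnO 1 rose and 1 fell of 9, against 4.43% called (1.63% higher, 2.8% lower). With nano ZnO 1 rose and 2 fell, against 11.9% (4.77% higher, 7.18% lower). The median difference of the 9 was -0.05, -0.05 and -0.02 in these arms, beside 0.03, 0.01 and 0.02 for all probe sets. None of the 9 was called between micro ZnO and formulation, where 6.83% of probe sets were, or between nano ZnO and formulation, where 3.25% were. At an unadjusted p under 0.05 there were 2 and 3 members in these 2 comparisons by limma. Nano and micro ZnO differed in 0 of 9 apolipoproteins and in 0% of probe sets, in the virgin as in the pregnant mice, with 0 members at an unadjusted p under 0.05 by limma.
In pregnant mice 0 of 9 members were called in the formulation, micro ZnO and nano ZnO arms against untreated, and 0 had an unadjusted p under 0.05 by limma. The share of all probe sets called was 0.0598%, 0.107% and 0.0214%. Micro or nano ZnO against formulation gave 0% of probe sets.

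Levels in untreated pregnant and virgin mice can be set side by side without a test, because experiment and pregnancy cannot be told apart. On the deposited scale all 9 genes read lower in pregnant mice, by -0.86 for Apoa4, -0.67 for Apoa5 and -0.23 for Apof at the ends. After all 46 arrays were brought to 1 distribution, the difference was -0.45 for Apoa4 and -0.16 for Apoe, both without overlap. The other 7 ran from -0.25 (Apoa5) to 0.22 (Apof) and overlapped. Overlap was not counted over all probe sets, so its absence does not set Apoa4 and Apoe apart from other genes. The sign for Apob, Apof and Apom turned with the scaling.

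The other genes of the lipoprotein pathway were followed in lists that were chosen with earlier results of these data known. The clearest count was in VLDL assembly and secretion, the machinery that loads Apob with lipid and carries the particle out of the endoplasmic reticulum. In virgin formulation mice 13 of 20 measured genes fell and 0 rose, with a median of -0.26 beside 0.03 for all probe sets and 15% called lower. The largest falls were in Sort1 (-0.56), a sorting receptor that binds Apob, Sec24d (-0.50), a coat protein of the export vesicles, Pla2g12b (-0.47), needed for full lipid loading, and Lman1 (-0.46), a cargo receptor. Mttp, which transfers lipid to nascent Apob, fell by 0.27, while Apob itself was at -0.001. The count for formulation changed with the handling of array spread. The interquartile range of an array averaged 2.83 ± 0.05 (SD) in formulation mice and 2.97 ± 0.07 in untreated mice. It ran from 2.76 to 2.89 in formulation and from 2.9 to 3.09 in untreated mice, without overlap. A fit with this range as a covariate therefore cannot separate array spread from the arm. With this covariate 0 of 20 were called, and after arrays were brought to 1 distribution within the experiment 6 fell and 1 rose. The same covariate left 1 of the 32 genes called with formulation over all 7 lists, Cebpb, so that every other gene named below for formulation lost its call there. In micro ZnO mice 3 of 20 fell and 1 rose, and in nano ZnO mice 6 fell and 1 rose, with medians of 0.03 and -0.07. Of all probe sets 2.8% and 7.18% were called lower in these arms, and 1.63% and 4.77% higher. For nano ZnO the split was 5 lower and 4 higher after arrays were brought to 1 distribution. Sort1 fell with micro and nano ZnO (-0.58 and -0.44), and both calls held in all 8 other settings and with each array left out. So did those of Sec24d (-0.51) and of Plin2, a lipid droplet coat protein (-0.77), with nano ZnO. Pla2g12b fell by 0.35 with micro ZnO, a call lost with the covariate.

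The counts of the next lists stand beside 11.5% of all probe sets called higher and 15% lower with formulation. With micro ZnO these shares were 1.63% and 2.8%, and with nano ZnO 4.77% and 7.18%. Among 12 measured genes of HDL formation and remodelling, 2 fell with formulation (Pltp and Pon3, -0.41). With each ZnO arm 2 rose and 1 fell. These counts moved with the scaling: with arrays brought to 1 distribution 3 rose and 2 fell with formulation, 4 rose and 2 fell with micro ZnO, and 5 rose and 1 fell with nano ZnO. Pltp, which moves phospholipid between particles, fell in all 3 virgin arms, by -0.49 ± 0.11 (SE), -0.52 ± 0.11 and -0.50 ± 0.11 (limma adjusted p = 0.00282, 0.00817 and 0.00555), and the calls in the ZnO arms held in all 8 other settings. Lipg, a lipase of HDL phospholipid, was 0.01 with formulation (adjusted p = 0.972) and rose by 0.68 ± 0.17 with micro ZnO (adjusted p = 0.0188) and 0.75 ± 0.17 with nano ZnO (adjusted p = 0.00487). Against formulation Lipg also passed, at 0.67 (adjusted p = 0.0155) and 0.74 (adjusted p = 0.0144). Both of these were lost with the array spread covariate (adjusted p = 0.106 and 0.0634), and the micro ZnO call against untreated was lost without micro ZnO replicate 1 or untreated replicate 5. Of 12 receptor and clearance genes, 1 rose and 2 fell with formulation, 1 fell with micro ZnO and 4 fell with nano ZnO, which became 2 with arrays brought to 1 distribution and 1 with the covariate. The largest fall with nano ZnO was that of Sdc1 (-0.50), a heparan sulfate proteoglycan that binds remnants. Of 8 genes of lipoprotein lipase and its regulators, 3 fell with formulation and 1 with each ZnO arm, which was Lmf1 (-0.44, -0.30 and -0.36), a maturation factor of the lipase. With the covariate 0 of 8 were called for formulation, and Lmf1 was still called in both ZnO arms. Of 5 genes of Apob RNA editing, the change that makes the short form Apob48, A1cf (-0.36) fell with formulation and Apobec1 (-0.43) with nano ZnO. The Apobec1 call held in 4 of 8 other settings and was lost without nano ZnO replicate 1, 3, 4 or 6 or untreated replicate 1, 3 or 4.

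Of all probe sets, 11.5% rose and 15% fell with formulation, and 1.63% and 4.77% rose with micro and nano ZnO. Of 25 transcription factors that act on apolipoprotein genes, 4 rose and 5 fell with formulation, 2 rose with micro ZnO and 4 rose with nano ZnO. For formulation this became 7 higher and 3 lower with arrays brought to 1 distribution, and 1 higher and 0 lower with the array spread covariate. Cebpb, an acute-phase and metabolic regulator, rose in all 3 arms by 0.88 ± 0.14 (SE), 0.51 ± 0.14 and 0.67 ± 0.14. The calls with formulation and nano ZnO held in every setting and with each array left out. That with micro ZnO was lost with replicate number as a block. It was also lost when 1 array was left out, whether the first, the third, the fourth or the fifth, of either the treated or the untreated group. Creb3l3, a fasting-responsive regulator of Apoa4, Apoa5 and Apoc2, fell by 0.41 with formulation (adjusted p = 0.000319, or 0.115 with the covariate) and stood at -0.04 with micro ZnO and -0.17 with nano ZnO, neither of which passed. Ppara, the nuclear receptor of fatty acid use, fell by 0.44 with formulation, and was 0.72 higher with micro ZnO and 0.58 higher with nano ZnO than with formulation (limma adjusted p = 0.00322 and 0.0195). Those last calls held in all 8 other settings, the nano ZnO one being lost without formulation replicate 2 or nano ZnO replicate 1. Nr1h4, the bile acid receptor, and Nr1h3, an oxysterol receptor, fell by 0.39 and 0.37 with formulation. Of 10 genes listed as other apolipoproteins, 2 rose with formulation. They were Apobr (0.36), which is a receptor and not an apolipoprotein, and Apol6 (0.30), whose call was also lost with arrays brought to 1 distribution. In this list 0 were called with micro ZnO, and 1 fell with nano ZnO, which was Apon. In the pregnant mice no gene of any of the 7 lists was called against untreated mice, and none was called in the difference of response between pregnant and virgin mice. Of all probe sets, at most 0.107% were called against untreated mice and at most 0.145% in the difference of response.

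**Figure D4:**
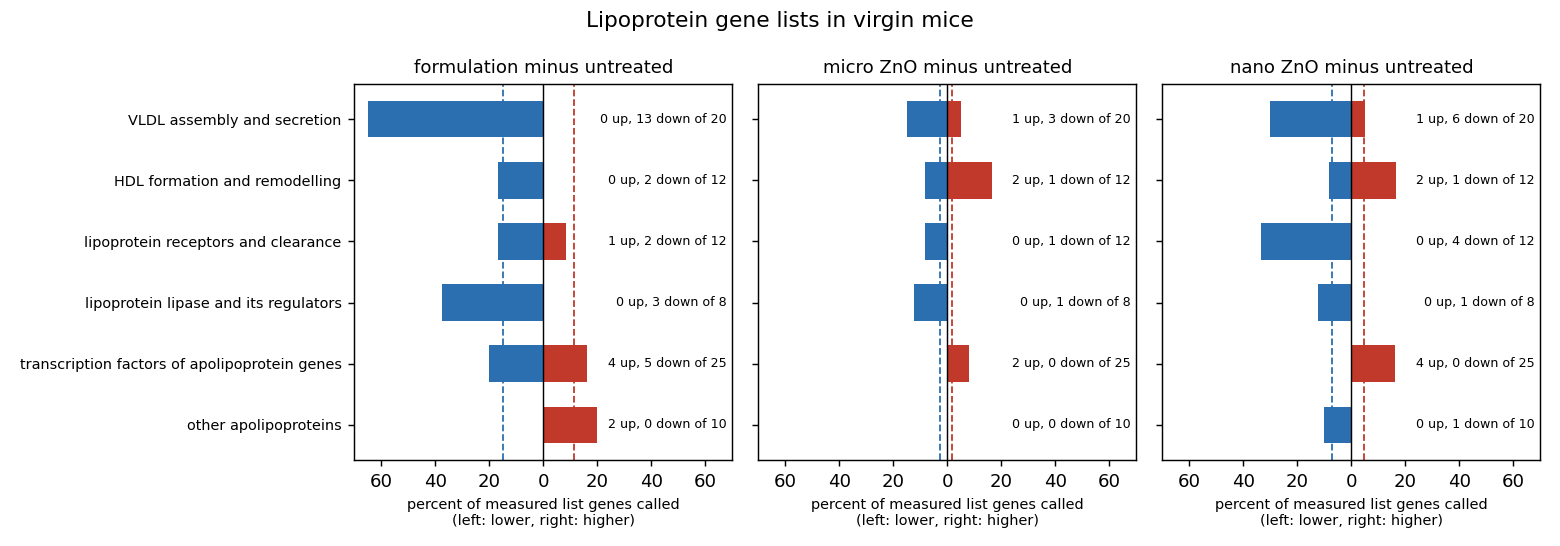
Percent of the measured genes of 6 lipoprotein lists called higher (right, red) or lower (left, blue) in each virgin arm against untreated mice; dashed lines are the percent of all probe sets called in that direction. VLDL assembly and secretion with formulation, 13 lower of 20, stands farthest from its dashed line.

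Markers of other cells moved in the same virgin comparisons, and in bulk tissue fewer cells of a type and less RNA per cell cannot be told apart. Of 9 hepatocyte markers measured, 1 rose and 1 fell with formulation, 0 changed with micro ZnO and 2 rose with nano ZnO, and their summed linear level ranged from 63740 to 68780 in untreated mice and from 63610 to 71350 in the treated arms. Of 8 endothelial markers 5 were lower in each arm, Cdh5, Tek, Kdr and Emcn in all 3, with a summed level of 1010 to 1280 untreated and 667 to 1059 treated. Neutrophil markers were higher in 4, 0 and 3 of 8. Of 9 Kupffer cell and macrophage markers 1 was lower in each arm, Cd68, and of 6 erythroid markers Alas2 and Car1 were lower in each. Stellate markers were lower in 2, 3 and 1 of 8, with 1 higher with formulation. Of 7 lymphocyte markers 1 rose and 1 fell with formulation and 1 rose with nano ZnO, 1 of 5 acinar markers fell with formulation, and 0 of 5 cholangiocyte markers changed. Their part in the apolipoprotein differences was not tested.
Because Apoa4 is also a gene of the small intestine, the 6 enterocyte markers were read beside it. Fabp2, the intestinal fatty acid binding protein, was the 1 of 6 called, at -1.19 ± 0.16 (SE), -0.88 ± 0.16 and -0.99 ± 0.16 in the 3 virgin arms, from a mean of 7.62 in untreated mice. The defining markers Sis and Cdh17 had means of 2.53 to 3.02 and Vil1, Alpi and Lct of 3.88 to 4.82 in virgin mice, at or below the array medians, and none of these 5 was called. The summed level of the 6 ran from 241 to 294 in untreated, 147 to 181 in formulation, 140 to 276 in micro ZnO and 158 to 213 in nano ZnO mice. Fabp2, the brightest of the 6, weighs most in this linear sum, so the sum is not a result apart from that gene. The part of these markers in the Apoa4 result was not tested. In the pregnant mice Fabp2 differed by -0.50, -0.83 and -0.59 and was not called. With micro ZnO 3 neutrophil markers of 8 rose there, where 0.107% of all probe sets were called.

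The genes whose levels followed each apolipoprotein most closely were ranked by Pearson's r of deviations from the experiment mean, taking the lower of the value over the 24 virgin and over the 22 pregnant arrays. These are descriptions, since arrays share treatment arms and array quality. For Apoa4 they were Mrps33 (0.61), Glcci1 (0.58) and Pithd1 (0.56). For Apoa5 they were Pptc7, a mitochondrial phosphatase (0.74), Abhd15 (0.71) and Dmac2 (0.71). Apom had the closest match of all 9, F13b, the carrier subunit of a clotting factor made in liver (0.81), followed by Auh (0.75) and Lmbrd1 (0.75). Apof was followed by Wdpcp (0.58), D8Ertd738e (0.58) and Apon (0.57), its neighbour on chromosome 10. The first gene for each of the others was Pramel15 for Apoa1 (0.57), Gstp3 for Apoa2 (0.65), Scarb2 for Apob (0.60), Fam149a for Apoc3 (0.69) and Ctps2 for Apoe (0.67). No apolipoprotein of the 9 was among the 3 closest genes of another.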

How the data were processed

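Liver RNA of 46 mice was measured on whole-transcript Affymetrix arrays. The authors deposited log2 intensities, made with RMA per the submitters' processing notes; its version, and whether both experiments were processed in 1 run, are not given in the sources used here. Of 35512 probe sets, 21789 carried 1 gene symbol, 1621 several and 12102 none; the 23410 with a symbol were tested. Group differences were fitted with limma 3.58.1 in R 4.3.3 (lmFit, eBayes) on all 4 arms of an experiment, and differences of response on all 8 groups, with Benjamini-Hochberg adjustment, called under 0.05. The fit was tested on simulated data. Arrays are labelled as biological replicates, 1 per mouse, and their number limits the precision. Same-numbered arrays did not deviate together (correlations -0.351 to 0.198 in virgin, -0.147 to 0.232 in pregnant mice), which cannot exclude a pairing. The labels state none, so the main fits paired no mice, and replicate number as a block was run as an alternative. All 9 members were named, with up to 4 called genes of largest change per list and direction and the 3 most similar genes per member. The members and lists were chosen with earlier results of these data known. Alternatives changed the probe sets tested, moderation, weights, normalisation, groups fitted, the replicate block, array spread as a covariate and each array left out. Promoters came from RefSeq (GRCm38.p6).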

Additional observations from a re-analysis of the deposited data

Results flagged for a closer look

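In 3 of 72 combinations of a gene and a group, 1 mouse lay farther from its group than Dixon's criterion allows, and chance gives about 1 in 20. They were Apoa2 in virgin untreated replicate 5 (13.60, nearest other mouse 13.64), Apom in virgin formulation replicate 5 (9.70, nearest 9.86) and Apom in pregnant nano ZnO replicate 1 (9.03, nearest 9.56).

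The response of Apoa4 differed between the pregnant and the virgin mice by the test of the difference itself for formulation and nano ZnO. The differences were 0.71 for formulation (limma adjusted p = 0.018) and 0.75 for nano ZnO (limma adjusted p = 0.0136). That for micro ZnO, 0.55, did not pass (limma adjusted p = 0.172). Both calls were lost without pregnant untreated replicate 5, and both with replicate number as a block. Experiment and pregnancy cannot be told apart in these differences.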

How the results depend on the processing

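The falls of Apoa4 in 3 virgin arms and the rises of Apoa5 with both ZnO arms passed under every alternative run. Other counts of apolipoproteins called moved. For virgin formulation against untreated the count of 2 became 1 with the compared groups alone, with the replicate block (Apoc3 adjusted p = 0.0529) and with array spread as a covariate. It rose from 0 to 1 for micro ZnO against formulation with array weights (Apoa5), and from 0 to 1 for nano ZnO against formulation after quantile normalisation within the experiment (Apof, -0.20, adjusted p = 0.0443). The difference in response to formulation, 1 gene (Apoa4), became 0 with the replicate block (0.69, adjusted p = 0.0642) and with array spread as a covariate (0.68, adjusted p = 0.0541), and ranged from 0 to 1 with each array left out. For nano ZnO it became 0 with the compared groups alone (0.75, adjusted p = 0.0773) and with the replicate block (0.73, adjusted p = 0.0512), and ranged from 0 to 1 with each array left out. VLDL assembly genes lower, an alternative chosen after seeing the data, went from 13 to 6 with quantile normalisation within the experiment and to 0 with array spread as a covariate for formulation, and from 3 to 1 with that covariate for micro ZnO. For the other lists, also tried after seeing the data, the replicate block took transcription factors higher from 2 to 0 for micro ZnO and from 4 to 1 for nano ZnO. The causes were not tested. No result changed sign among the calls. Of the counts, 379 alternatives stayed within 1.5 times and 14 did not. Many of the 379 were counts of 0 that stayed at 0, which say little about the calls that were made. The replicate block changed no call on an apolipoprotein other than these and Apof with nano ZnO (adjusted p = 0.0826). The choice of another probe set per gene could not be run, since each member has 1.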
